A study of Sus scrofa with 15 samples.

Results

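The genes described here were 10 enzymes that take acetyl groups off histones or put them on: the deacetylases HDAC1, HDAC2, HDAC3, HDAC6, HDAC8 and SIRT1, and the acetyltransferases EP300, CREBBP, KAT2A and KAT5. They were found by gene symbol in an RNA-seq table of pig cells and cloned pig embryos, where they were 10 of 28224 known genes. Acetyl groups on the tails of histones loosen chromatin and are bound by bromodomain proteins, so genes with acetylated promoters are usually active. Acetyltransferases use acetyl-CoA as the donor, HDACs use zinc to remove the group, and sirtuins such as SIRT1 use NAD+. In preimplantation embryos acetylation changes as maternal RNA is degraded and the embryo's own genome is switched on, and deacetylase inhibitors are widely used to treat cloned embryos.

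The 15 libraries came from 5 groups of 3. PFF are primary porcine fetal fibroblasts, the cell type whose nuclei were transferred into oocytes by somatic cell nuclear transfer (SCNT). SCNT4c and SCNT8c are untreated cloned embryos at the 4-cell and 8-cell stages. RNA for an embryo library was taken from 30 embryos together. SCNT4c-KG are 4-cell embryos injected with mRNA of the H3K9 demethylase KDM4A 5 h after activation, at 1000 ng/µl in the study's combination experiment, and kept for 48 h in 0.1 µM GSK126, which inhibits EZH2, the enzyme that methylates H3K27. SCNT4c-TDG are 4-cell embryos made from fibroblasts that carry a doxycycline-inducible vector for the DNA glycosylase TDG, with 500 ng/ml doxycycline from 40 to 72 h. The transfected donor line, the doxycycline and the TDG protein cannot be told apart in this design, nor can the injection, the KDM4A protein and the inhibitor. Nothing in the labels says that the 3 libraries of a group came from separate cultures or transfer days, so the p-values measure only the spread between these libraries. GEO's labels conflict on untreated and treated 4-cell embryos: the description field of the SCNT4c-KG samples holds the names that the table gives to its untreated columns. The groups here follow the column names as matched to the sample titles, every comparison with SCNT4c or SCNT4c-KG rests on that reading, and the 3 SCNT4c libraries are called a, b and c because their numbers could not be settled.

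The levels of KDM4A and TDG did not go against this reading. KDM4A had normalized values of 1429 to 1476 in SCNT4c-KG, 555 to 918 in SCNT4c-TDG, 134 to 313 in SCNT4c, 47.5 to 162 in SCNT8c and 4932 to 5150 in PFF. TDG had 49857 to 59944 in SCNT4c-TDG, 3886 to 4738 in SCNT4c-KG, 939 to 2541 in SCNT4c and 2052 to 2506 in SCNT8c. EZH2, the target of GSK126, had 915 to 1245 in SCNT4c-KG and 983 to 1208 in SCNT4c-TDG, against 314 to 344 in SCNT4c, so its level did not separate the treatments. A normalized value is the number of reads on a gene's entry divided by 1 factor per library, and between 12354649 and 22868038 whole reads per library could be recovered from the table, fewest in SCNT4c-KG. The 13 fibroblast markers summed to between 3480230 and 3801020 in PFF, 3866 to 5098 in SCNT4c, 2387 to 3590 in SCNT4c-KG, 1458 to 1843 in SCNT4c-TDG and 1951 to 2238 in SCNT8c, with COL5A1 and FBN1 at 0 in all embryo libraries. The 9 cumulus and granulosa markers in the table summed to 1397 to 1809 in SCNT4c, 946 to 1203 in SCNT4c-KG, 516 to 646 in SCNT4c-TDG and 1430 to 1926 in SCNT8c, with PTX3, FOXL2 and AMH at 0 in all of them. INHBA alone averaged 1412 in SCNT4c and 1487 in SCNT8c, so it made up most of the sum in these groups. The 13 maternal and oocyte markers summed to 277344 to 345148 in SCNT4c, 75961 to 122808 in SCNT4c-KG, 34952 to 42926 in SCNT4c-TDG and 65593 to 196539 in SCNT8c, with GDF9, BMP15 and MOS at 0. All 3 sums were lower in both treated groups than in SCNT4c, without overlap. Single markers did not all follow the sums: in SCNT4c-KG 2 fibroblast markers rose and 4 fell, 1 maternal marker rose and 4 fell, and 1 cumulus marker rose and 1 fell. In SCNT8c the fibroblast and maternal sums were also lower. The part of these shifts in the results was not tested, and fewer cells of a type and less RNA per cell cannot be told apart. SCNT8c replicate 3 stood apart: its log2 values correlated more with the SCNT4c libraries (mean Pearson r 0.859 across features) than with the other SCNT8c libraries (0.772), and results at the 8-cell stage are given with and without it.

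For 3 of the 10 genes the sequence before the start is shown, because SIRT1 was higher in SCNT4c-TDG than in any other group, HDAC3 had few reads in untreated embryos and many in both treated groups, and KAT2A was lower in both. They were chosen after the values were seen. Each run is the 250 bases before the RefSeq start of the gene in Sscrofa11.1, read 5′ to 3′ along the gene's strand, with CG dinucleotides in capitals.
SIRT1 (chr14:71090917-71091166, plus strand): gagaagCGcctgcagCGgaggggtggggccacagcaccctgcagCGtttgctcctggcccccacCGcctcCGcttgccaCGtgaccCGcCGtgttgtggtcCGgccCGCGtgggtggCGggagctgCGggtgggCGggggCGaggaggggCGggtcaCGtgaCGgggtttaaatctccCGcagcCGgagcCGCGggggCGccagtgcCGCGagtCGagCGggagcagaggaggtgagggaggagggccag
HDAC3 (chr2:143287422-143287671, minus strand): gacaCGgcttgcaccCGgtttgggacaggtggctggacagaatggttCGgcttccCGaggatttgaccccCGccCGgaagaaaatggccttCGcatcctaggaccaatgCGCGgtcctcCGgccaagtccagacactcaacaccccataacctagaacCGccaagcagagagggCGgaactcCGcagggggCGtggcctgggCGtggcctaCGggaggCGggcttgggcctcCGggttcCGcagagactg
KAT2A (chr12:20638243-20638492, plus strand): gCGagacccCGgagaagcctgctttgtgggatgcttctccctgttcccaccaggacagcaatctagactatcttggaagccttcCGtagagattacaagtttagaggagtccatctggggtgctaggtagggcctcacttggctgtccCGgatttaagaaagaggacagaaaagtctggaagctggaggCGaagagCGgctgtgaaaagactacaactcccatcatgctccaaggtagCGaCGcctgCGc
The SIRT1 window held 27 CG dinucleotides, the HDAC3 window 19 and the KAT2A window 9, against a median of 12 over 19547 promoters of the same length. The GC box GGGCGG, searched on both strands, occurred 2 times before SIRT1, 2 times before HDAC3 and 0 times before KAT2A, and 45.9% of all windows held it. CCAAT on either strand occurred once before HDAC3 and in 31.9% of all windows. These counts describe the windows only.

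SIRT1 is an NAD+-dependent deacetylase of histones and of transcription factors such as p53, encoded at chr14:71091167-71126351. Its normalized values were 703, 618 and 863 in SCNT4c libraries a, b and c, and 957, 1144 and 981 in PFF. They were 1225, 1383 and 2548 in SCNT4c-KG and 5196, 5621 and 5200 in SCNT4c-TDG. In SCNT8c they were 1625, 1042 and 890. The SCNT4c-TDG libraries lay above all 12 others and close together, while in SCNT4c-KG replicate 3 was well above the other two. SIRT1 rose in SCNT4c-KG (log2 fold change 1.17 ± 0.33 SE, limma adjusted p = 0.0116) and in SCNT4c-TDG (2.89 ± 0.33, adjusted p = 1.35e-05), a ratio of group means of 2.36 and 7.33. Of its exon bases, 3.16% are shared with those of HERC4.

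HDAC1 is the catalytic subunit of the Sin3, NuRD and CoREST repressor complexes, encoded at chr6:88749611-88785220. It had 1402, 2122 and 1646 in SCNT4c, 874, 1003 and 1538 in SCNT4c-KG, and 808, 568 and 598 in SCNT4c-TDG. The SCNT8c libraries had 2759, 3534 and 1880, and PFF had 3374, 3215 and 3697. HDAC1 fell in SCNT4c-TDG (log2 fold change -1.38 ± 0.33, adjusted p = 0.00479), where no library overlapped SCNT4c. In SCNT4c-KG the log2 difference was -0.62, with a 95% interval from -1.32 to 0.08 (adjusted p = 0.149), and replicate 3 lay inside the SCNT4c range.

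HDAC2, the close paralogue of HDAC1 in the same complexes (chr1:79867713-79901597), was at or near 0 in every library. Its entry held 2 recovered reads over the 3 PFF libraries, 0 in SCNT4c, 4 in SCNT4c-KG, 1 in SCNT4c-TDG and 2 in SCNT8c. An assembled transcript without gene name is listed at the same locus, and it held at most 4.59 in any library, so the planned HDAC2 to HDAC1 ratio could not be formed. HDAC2 is widely expressed in cultured cells, and its entry is therefore given as listed near 0, with no level drawn from it. Entries of other genes of the acetylation machinery, such as KAT7, SIRT6 and EP400, were also at 0 in PFF and SCNT4c.

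HDAC3 is the deacetylase of the NCoR and SMRT corepressor complexes, encoded at chr2:143273188-143287421. It had 3.94, 6.99 and 0 in SCNT4c and 0.934, 1.66 and 13.7 in SCNT8c. It had 58.8, 68.5 and 110 in SCNT4c-KG, 103, 44.5 and 77.3 in SCNT4c-TDG, and 112, 129 and 125 in PFF. Both treated groups lay above all untreated embryos and below PFF. HDAC3 rose in SCNT4c-KG (log2 fold change 4.50 ± 0.99, adjusted p = 0.00254) and in SCNT4c-TDG (4.40 ± 0.99, adjusted p = 0.00327). Assembled transcripts at the same locus held 3.32 to 9.46 in SCNT4c, and with them added the log2 fold changes were 3.0 and 2.95, both still called. Without SCNT4c library c, the one at 0, they were 3.62 and 3.51. The SCNT4c side of both comparisons rests on 13 recovered reads, against 167 in SCNT4c-KG and 282 in SCNT4c-TDG.

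HDAC8 deacetylates the cohesin complex, and HDAC6 is a cytoplasmic deacetylase of tubulin. HDAC8 (chrX:58210182-58450681) had 164, 369 and 225 in SCNT4c, 189, 123 and 311 in SCNT4c-KG, 130, 173 and 166 in SCNT4c-TDG and 494, 627 and 284 in SCNT8c. Each neighbouring pair of groups in the order of its means overlapped, and it did not pass the test in any of the 5 comparisons. HDAC6 (chrX:42917911-42941894) was below the minimum mean of 10 that a gene needed to be tested. It had 13.4, 14 and 14.3 in PFF, 15.1, 18.4 and 3.83 in SCNT4c-TDG, 11.4, 10.2 and 0 in SCNT4c-KG, and 2 recovered reads in SCNT4c and 0 in SCNT8c.

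**Figure D1:**
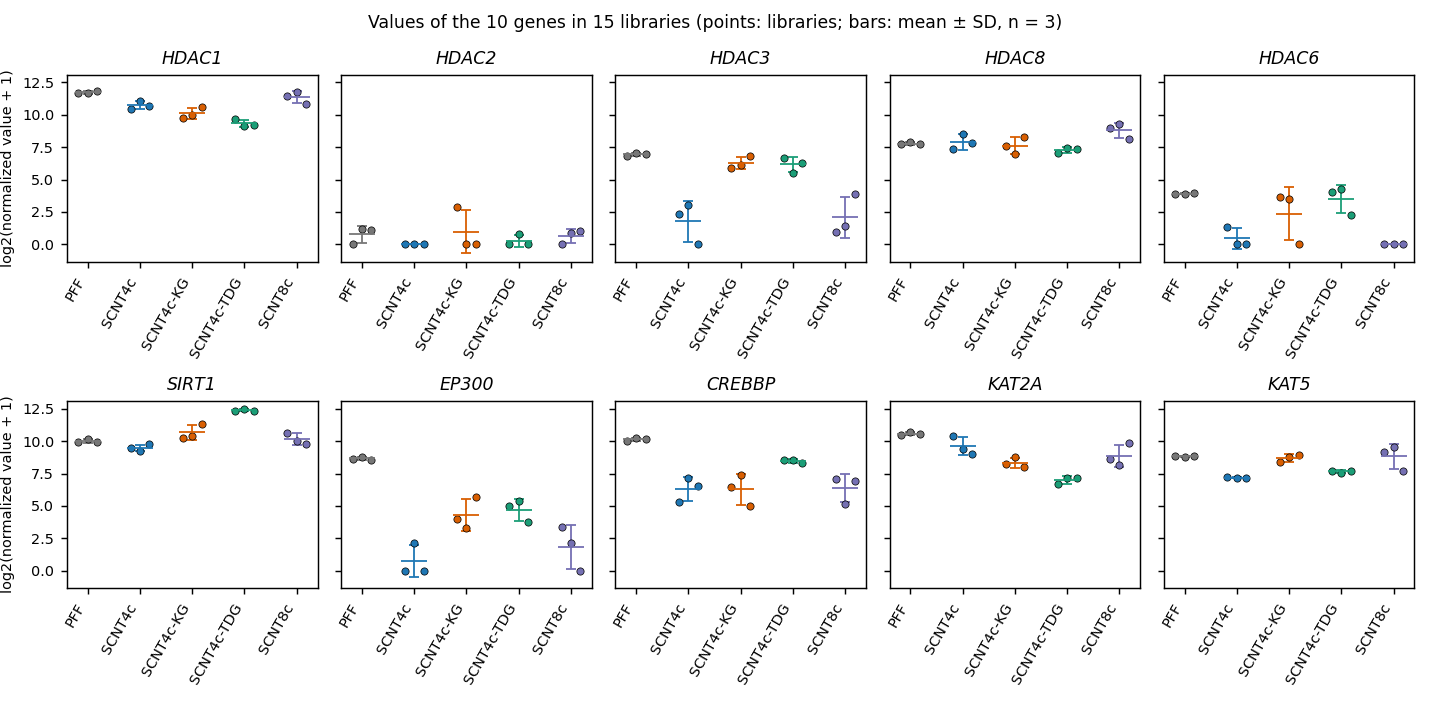
Each panel shows 1 gene, with log2(normalized value + 1) on the vertical axis, the 5 groups along the horizontal axis, 1 point per library, and the mean and SD of the log2 values of 3 libraries. SIRT1 is highest in SCNT4c-TDG, KAT2A steps down from SCNT4c through SCNT4c-KG to SCNT4c-TDG, and HDAC3 and EP300 are near 0 in SCNT4c and well above it in both treated groups.

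EP300 and CREBBP (p300 and CBP) are paralogous acetyltransferases that mark enhancers and promoters by acetylating H3K27. EP300 (chr5:7311165-7394515) had 0, 3.5 and 0 in SCNT4c, 14.7, 8.88 and 49.9 in SCNT4c-KG, 30.1, 39.9 and 12.2 in SCNT4c-TDG, 9.34, 3.33 and 0 in SCNT8c, and 397, 441 and 379 in PFF. It rose in both treated groups (log2 fold change 3.59 ± 1.12, adjusted p = 0.0204 in SCNT4c-KG, and 3.96 ± 1.12, adjusted p = 0.0135 in SCNT4c-TDG), from 4 recovered reads in SCNT4c to 51 and 104. An assembled transcript of the same locus held 2.62 to 12.6 in SCNT4c, and with it added the log2 fold change in SCNT4c-KG was 1.74 (adjusted p = 0.0687). The call in SCNT4c-KG was also lost without SCNT4c library a or c (3.23 in both) and without SCNT4c-KG replicate 3 (2.92, adjusted p = 0.0864).

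CREBBP (chr3:38388366-38530243) had 38.6, 139 and 93.0 in SCNT4c. The SCNT4c-KG libraries had 86.6, 168 and 31.3, a range that covers that of SCNT4c. It had 374, 371 and 310 in SCNT4c-TDG, 132, 34.9 and 120 in SCNT8c, and 1054, 1183 and 1132 in PFF. CREBBP rose in SCNT4c-TDG (log2 fold change 2.13 ± 0.69, adjusted p = 0.0264). In SCNT4c-KG the difference was -0.04, with a 95% interval from -1.5 to 1.42 (adjusted p = 0.968), and its sign depended on the scaling. The log2 ratio of EP300 to CREBBP, which does not depend on library scaling, could be formed without zeros only in PFF, SCNT4c-KG and SCNT4c-TDG. Its mean was -2.04 in SCNT4c-KG and -3.84 in SCNT4c-TDG, a difference of -1.80 (exact two-sided permutation p = 0.3, n = 3 against 3). The smallest p that 3 against 3 libraries allow is 0.1, and without SCNT4c-KG replicate 3 the difference was -0.44.

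KAT2A (GCN5) is the acetyltransferase of the SAGA and ATAC coactivator complexes, encoded at chr12:20638493-20647464. It had 1371, 689 and 525 in SCNT4c, 296, 429 and 255 in SCNT4c-KG, and 101, 140 and 144 in SCNT4c-TDG. SCNT8c had 387, 283 and 907, and PFF had 1409, 1639 and 1491. The 3 groups of 4-cell embryos did not overlap. KAT2A fell in SCNT4c-TDG (log2 fold change -2.63 ± 0.48, adjusted p = 0.00068), a ratio of means of 0.149, and in SCNT4c-KG (-1.31 ± 0.48, adjusted p = 0.0416). The second call is close to the threshold, though the log2 fold change stayed between -1.61 and -0.91 over the alternatives. The call was lost when SCNT4c library a was dropped (-0.91, limma adjusted p = 0.180), or library b (-1.41, adjusted p = 0.073). Dropping SCNT4c-KG replicate 3 (adjusted p = 0.122) or replicate 1 (adjusted p = 0.0963) had the same effect. So did edgeR (adjusted p = 0.0589) and testing every feature above 0 (limma adjusted p = 0.0651). Dropping any 1 SCNT4c-TDG library or SCNT8c replicate 1, outside this comparison, lost it too (adjusted p 0.0501 to 0.0556).

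KAT5 (TIP60) is the acetyltransferase of the NuA4 complex, which acts in transcription and in DNA repair; it is encoded at chr2:6560544-6572461. Its 3 SCNT4c libraries were nearly identical at 149, 144 and 138. They were followed by 204, 189 and 211 in SCNT4c-TDG, 332, 440 and 487 in SCNT4c-KG, 454, 433 and 461 in PFF, and 569, 764 and 211 in SCNT8c. KAT5 rose in SCNT4c-KG (log2 fold change 1.52 ± 0.45, adjusted p = 0.0146). In SCNT4c-TDG its libraries lay above those of SCNT4c without overlap, but the log2 difference of 0.48 (95% interval -0.47 to 1.43) did not pass the test (adjusted p = 0.423). Of the exon bases of KAT5, 679 are shared with RNASEH2C, and the strand setting of the counting is not given in the sources used here, so reads there cannot be assigned with certainty.

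Within a library, levels of different genes are compared per kb of exon. In SCNT4c the order by mean value per kb was HDAC1 (811), KAT2A (273), SIRT1 (91.2), HDAC8 (26.5), KAT5 (23.6), CREBBP (10.5) and HDAC3 (1.75), with EP300 and HDAC6 below. HDAC2 is left out of the order because no level was drawn from its entry. HDAC1 was first in 4 of the 5 groups. In SCNT4c-TDG SIRT1 was first, at 669 per kb against 310 for HDAC1, and KAT2A was at 40.7. In SCNT4c-KG the first places were held by HDAC1 (536), SIRT1 (215) and KAT2A (103).

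**Figure D2:**
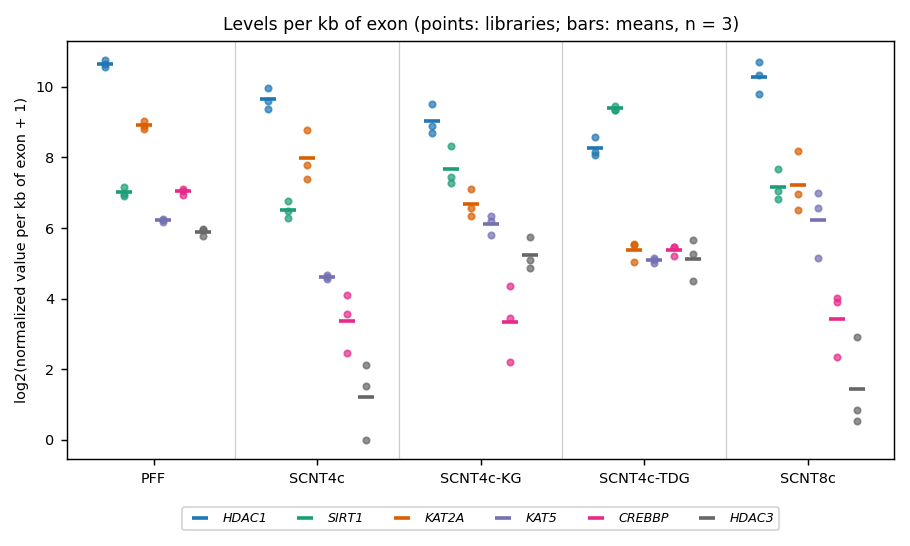
The vertical axis is log2(normalized value per kb of exon + 1) for 6 of the genes in the 5 groups, with 1 point per library and a bar at the mean of 3 libraries. HDAC1 is above SIRT1 in every group but SCNT4c-TDG, where SIRT1 averaged 669 per kb and HDAC1 310.

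SCNT4c-KG was compared with untreated SCNT4c for the combined treatment with KDM4A mRNA and GSK126, and no histone methylation was measured in these libraries. A change was a limma Benjamini-Hochberg adjusted p under 0.05, over all 18942 features tested, with a fold above 2. Of the 8 genes tested, 4 rose (HDAC3, EP300, KAT5 and SIRT1), 1 fell (KAT2A) and 3 did not pass. HDAC3 and EP300 reached the minimum mean only through the treated groups, so they could be tested only because they were high there, and their calls add no support to the count. Among all features 37.2% were called, 17.6% higher and 19.6% lower. The 5 called genes were also those whose groups did not overlap, which held for 53.9% of all features. Without SCNT4c-KG replicate 3 only HDAC3 was called (1 of 8), and without SCNT4c library a 3 were called.

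SCNT4c-TDG was compared with the same 3 SCNT4c libraries, so the results of the treatments are not independent. Here 4 genes rose (SIRT1, HDAC3, EP300 and CREBBP), 2 fell (KAT2A and HDAC1) and 2 did not pass (KAT5 and HDAC8). The limit on HDAC3 and EP300 from the minimum mean holds here too. Among all features 33.3% were called, 15.7% higher and 17.6% lower. For 7 of the 8 genes the groups did not overlap, against 58.4% of all features. Without SCNT4c-TDG replicate 1 or replicate 2, EP300 and CREBBP lost their calls and 4 of the 8 were called. CREBBP also lost its call without SCNT4c-TDG replicate 3 or SCNT4c library a (adjusted p = 0.0583 and 0.114). SIRT1, KAT2A and HDAC1 kept their direction and their call in every setting tried, and HDAC3 in every setting in which it was tested.

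**Figure D3:**
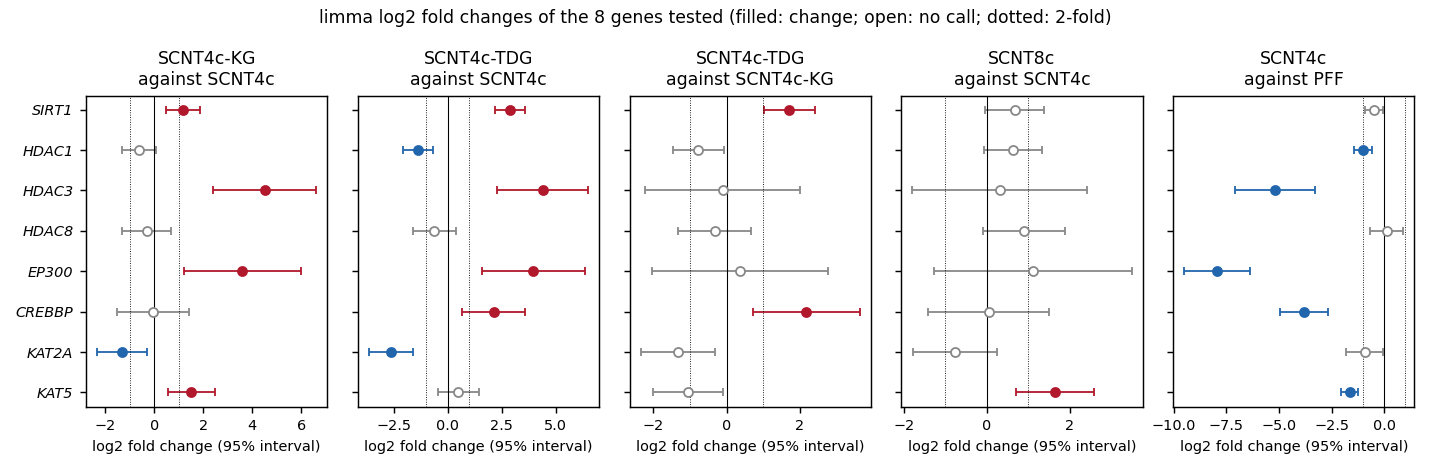
Points are limma log2 fold changes of the 8 genes tested, bars their 95% intervals, with 1 panel and its own horizontal scale for each of the 5 comparisons. Filled red points rose, filled blue points fell and open points did not pass; dotted lines mark a 2-fold change. SIRT1 (1.71) and CREBBP (2.17) are the filled points between the treatments.

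The direct comparison of SCNT4c-TDG with SCNT4c-KG tests whether the treatments differed. SIRT1 was higher in SCNT4c-TDG (log2 fold change 1.71 ± 0.33, adjusted p = 0.00271), and so was CREBBP (2.17 ± 0.69, adjusted p = 0.0419). Among all features 16.2% were called, 7.07% higher and 9.13% lower. Of the features called 43.6% were higher, or 64.2% when each library was scaled to the same total. For 5 of the 8 genes the groups did not overlap, against 44.4% of all features: SIRT1 and CREBBP were higher in SCNT4c-TDG, and HDAC1, KAT2A and KAT5 lower. The log2 differences of these 3 were -0.76 (adjusted p = 0.131), -1.32 (adjusted p = 0.0717) and -1.04 (adjusted p = 0.127), and KAT2A and KAT5 passed when only these 2 groups were fitted (adjusted p = 0.0107 and 0.0159). The call of CREBBP is close to the threshold: without SCNT4c-KG replicate 3 its log2 fold change was 1.53 (adjusted p = 0.164), and it was also lost without SCNT4c-KG replicate 1, SCNT4c library c or any 1 SCNT4c-TDG library. HDAC3, HDAC8 and EP300 differed by -0.11, -0.32 and 0.36, with 95% intervals of -2.21 to 2.00, -1.31 to 0.68 and -2.02 to 2.75.

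From the 4-cell to the 8-cell stage, untreated embryos showed 1 call among the 8 genes, a rise of KAT5 (log2 fold change 1.64 ± 0.45, adjusted p = 0.0442). Among all features 5.79% were called, 2.62% higher and 3.16% lower. Of the features called 45.3% were higher, or 79.5% by edgeR and 71.8% by DESeq2. The groups did not overlap for KAT5 and SIRT1 (2 of 8), against 23.5% of all features. Without SCNT8c replicate 3, KAT5 (2.19) and HDAC8 (1.2, adjusted p = 0.0457) rose and KAT2A fell (-1.25, adjusted p = 0.0298), 3 calls of 8. In that fit 6133 features were called, against 1096 with the library. The call of KAT5 was lost when any other library of the 12 was left out, with adjusted p up to 0.155, and when SCNT8c and SCNT4c were fitted alone (adjusted p = 0.211), a fit in which limma called 0 of 18184 features and 3582 had an unadjusted p under 0.05.

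Against the donor cell type, SCNT4c embryos had lower values for most of the genes. EP300 (log2 fold change -7.94 ± 0.64, adjusted p = 5.28e-05), HDAC3 (-5.17 ± 0.78, adjusted p = 0.00101), CREBBP (-3.80 ± 0.46, adjusted p = 0.000375), KAT5 (-1.64 ± 0.16, adjusted p = 0.000134) and HDAC1 (-1.01 ± 0.17, adjusted p = 0.00188) fell. EP300 and HDAC3 reached the minimum mean in this fit only through PFF, so their calls add no support to the count. Among all 19287 features 78.2% were called, 39.7% higher and 38.5% lower. KAT2A (-0.93) and SIRT1 (-0.51) were under the 2-fold limit, and HDAC8 differed by 0.12. In 7 of the 8 the groups did not overlap, as in 84.5% of all features. The median log2 fold change of all features was 0.07 here, but 0.92 when each library was scaled to the same total, 0.96 in edgeR and 1.01 in DESeq2. Under quantile normalization, edgeR and DESeq2 the calls of HDAC1 and KAT5 were lost and SIRT1 turned to a positive value (0.51, 0.25 and 0.29), whereas EP300, HDAC3 and CREBBP stayed called. Without PFF replicate 3, SCNT4c library a or SCNT4c library c the call of HDAC1 was lost as well, with a log2 fold change of -0.96, -0.87 and -0.99.

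The enzymes do not act alone, and 159 other genes of the acetylation machinery were placed in 6 lists. Of 18 other acetyltransferases, 14 could be tested. In SCNT4c-KG 6 of them rose and 0 fell, and in SCNT4c-TDG 8 rose and 0 fell. Over all features 17.6% rose and 19.6% fell in SCNT4c-KG, and 15.7% and 17.6% in SCNT4c-TDG, which is the background for each list below. The list genes given with a fold change, here and below, averaged at least 100 in the higher group, and the largest changes are those among such genes. In SCNT4c-KG the largest rises were those of NAA10, the catalytic subunit of the main N-terminal acetyltransferase (log2 fold change 4.00, from 70.1 to 1124), KAT8, the H4K16 acetyltransferase (2.78, from 125 to 824), and GTF3C4 (1.90). In SCNT4c-TDG they were KAT6A (2.47, from 243 to 1349), GTF3C4 (2.25) and the nuclear receptor coactivator NCOA2 (2.22). The median log2 fold change of the list was 1.42 in SCNT4c-KG and 1.97 in SCNT4c-TDG, against -0.30 and -0.26 for all features. Genes low in SCNT4c, in this list and the others, could pass the minimum mean through the treated groups. KAT2B (0.554 in both SCNT4c and SCNT8c) and NAA40 (2.74 and 4.29) reached it only in this way. They could only rise against SCNT4c, so they add no support to the counts or the medians of this list. The same holds for TADA3, DMAP1, ING5 and PHF20 among the acetyltransferase complex subunits and for BAZ1A among the readers. With 1 library left out, between 5 and 7 rose in SCNT4c-KG and 8 or 9 in SCNT4c-TDG, and 0 fell. At an unadjusted limma p under 0.05, 1 of the 14 was lower in SCNT4c-KG and 0 in SCNT4c-TDG, and edgeR and DESeq2 called 0 falls in either. Between the treatments, HAT1, which acetylates newly made H4 (1.5, from 2252 to 6307), and KAT6A (1.12, limma adjusted p = 0.0437) were higher in SCNT4c-TDG, and NAA10 (-1.99) and NAA60 (-1.48) lower. With 1 library left out, between 1 and 3 of the 14 were higher there and between 0 and 3 lower.

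Of 12 other deacetylases only 6 could be tested. In SCNT4c-KG the sirtuins SIRT2 (1.82), SIRT3 (1.46) and SIRT7 (1.40) rose, and SIRT4 (-1.88) and HDAC9 (-2.03) fell. With 1 library left out, between 0 and 3 rose and between 0 and 2 fell, with 0 or 1 rise without any 1 SCNT4c or SCNT4c-KG library, and edgeR called 3 rises and 0 falls. In SCNT4c-TDG limma, edgeR and DESeq2 called 0 of the 6, with 1 at an unadjusted limma p under 0.05 and a median log2 fold change of -0.61. SIRT3, a mitochondrial deacetylase (-2.0), and SIRT2 (-1.89, limma adjusted p = 0.0435) were lower in SCNT4c-TDG than in SCNT4c-KG, opposite to SIRT1. With 1 library left out, between 0 and 2 of the list were lower there and 0 or 1 higher, and edgeR called 1 lower.

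Of 33 subunits of the acetyltransferase complexes tested, 17 were higher and 7 lower in SCNT4c-KG, and 13 higher and 6 lower in SCNT4c-TDG. Among all features 37.2% and 33.3% were called, and the list's median log2 fold change was 1.13 and 0.52. The largest rises in SCNT4c-KG were KANSL2 of the NSL complex around KAT8 (5.48, from 22.8 to 1033), ATXN7 of SAGA (4.15) and BRPF1, the scaffold of the KAT6A complex (3.87). ATXN7 (4.50) and BRPF1 (3.77) were also among the largest rises in SCNT4c-TDG, with ENY2 of SAGA (3.07, from 969 to 8124). The SAGA subunit TAF12 fell in both (-1.91 and -2.25). The other large falls were MBTD1 (-2.82) and SUPT20H (-2.81) in SCNT4c-KG, and MEAF6 (-2.16) and SUPT3H (-2.08) in SCNT4c-TDG. Between the treatments 5 were higher and 5 lower, against 7.07% and 9.13% of all features, but with 1 library left out between 1 and 5 were higher and between 4 and 6 lower. Only 1 was higher without SCNT4c-KG replicate 1, SCNT4c-TDG replicate 1 or SCNT4c-TDG replicate 3, and 2 without replicate 2 of either group. KANSL2 (-3.09), the NuA4 ATPase RUVBL1 (-1.98) and VPS72 (-1.49) were lowest in SCNT4c-TDG relative to SCNT4c-KG, and ZZZ3 (3.43), MBTD1 (1.91) and JADE3 (1.62) highest.

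Of 27 subunits of the deacetylase complexes tested, 4 were higher and 7 lower in SCNT4c-KG, and 3 higher and 8 lower in SCNT4c-TDG. The list's median log2 fold changes, -0.31 in both, were close to the -0.30 and -0.26 of all features. By edgeR they were 4 and 4 in SCNT4c-KG, and 3 and 4 in SCNT4c-TDG. With 1 library left out, 2 to 4 were higher and 4 to 7 lower in SCNT4c-KG, fewest higher without SCNT4c-KG replicate 3 and fewest lower without SCNT4c library a or b or SCNT4c-KG replicate 1. In SCNT4c-TDG 2 or 3 were higher and 4 to 9 lower, with 4 lower without SCNT4c library c or any 1 SCNT4c-TDG library. SAP30 of the Sin3 complex fell in both (-2.43 and -2.91, from 13251 in SCNT4c to 2456 and 1764). CDK2AP1 (-1.95) and SAP30L (-1.64) fell in SCNT4c-KG, where SAP18 (2.63, from 5311 to 33206), DNTTIP1 of the mitotic deacetylase complex (2.38) and the methyl-CpG binding protein MBD2 (1.44) rose. In SCNT4c-TDG the NuRD subunits GATAD2B (-2.33) and MTA2 (-1.68) fell, and DNTTIP1 (2.39), TBL1XR1 of the HDAC3 complex (1.58) and ZMYM2 (1.23) rose. MTA2 differed most between the treatments, at 1443 ± 303 (SD, n = 3) in SCNT4c-KG, 601 ± 82.6 in SCNT4c and 197 ± 79.9 in SCNT4c-TDG (log2 fold change -2.93, adjusted p = 0.000203 between the treatments). SAP18 (-2.0) and GATAD2B (-1.37) were also lower in SCNT4c-TDG, and TBL1XR1 (2.16) higher.

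**Figure D4:**
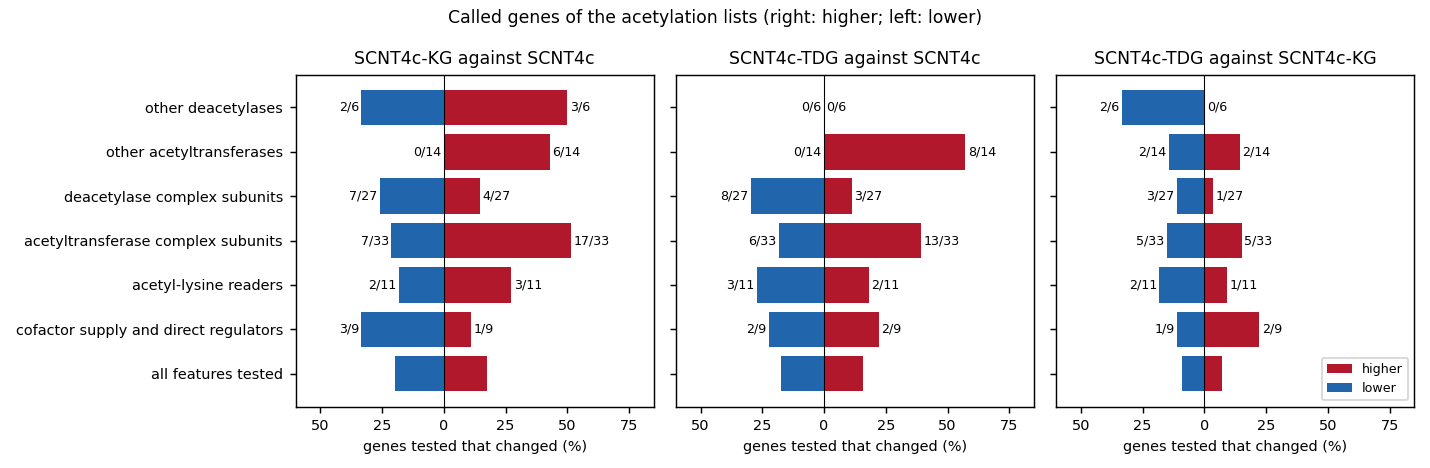
Bars give the percentage of the tested genes of each list that rose (right, red) or fell (left, blue), with the counts beside them, and the last bar gives all features tested. Other acetyltransferases rose in 6 of 14 and 8 of 14 and fell in 0 of 14 against SCNT4c. The 14 include KAT2B and NAA40, which reached the minimum mean only through the treated groups.

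Among 11 readers of acetyl-lysine tested, 3 rose and 2 fell in SCNT4c-KG, and 2 rose and 3 fell in SCNT4c-TDG, against 37.2% and 33.3% called among all features. BRD9 rose in SCNT4c-KG (2.62) and was lower in SCNT4c-TDG than there (-1.73). BRD7 (-1.96 and -2.96) and MLLT3 (-1.88 and -2.12) fell in both treatments. In SCNT4c-TDG TRIM24 rose (1.72), and BAZ1A had 117 ± 28.3 against 0.291 in SCNT4c. TRIM24 was also higher than in SCNT4c-KG (1.44). With 1 library left out, 0 or 1 of the readers was higher in SCNT4c-TDG than in SCNT4c-KG and 2 or 3 lower.

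Of 9 tested genes that supply acetyl-CoA or NAD+ or bind the enzymes directly, 1 rose and 3 fell in SCNT4c-KG, and 2 rose and 2 fell in SCNT4c-TDG. In SCNT4c-TDG 1 rose without SCNT4c library a or b or SCNT4c-TDG replicate 1 or 2, and 4 fell without SCNT4c library a. NAMPT, which makes the NAD+ precursor that sirtuins depend on, rose in SCNT4c-TDG (2.25, from 299 to 1424) and was higher there than in SCNT4c-KG (1.79). ACLY, which makes acetyl-CoA from citrate, also rose in SCNT4c-TDG (1.26). ACSS2 (-1.72 and -1.62) and NMNAT3 (-3.92 and -4.43) fell in both treatments. RPS19BP1, an activator of SIRT1, rose in SCNT4c-KG (2.22) and was lower in SCNT4c-TDG than in SCNT4c-KG (-1.28).

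At the 8-cell stage few genes of the 6 lists were called by limma, as were 5.79% of all features. SIRT2 (2.96), BRD9 (1.85) and RPS19BP1 (1.68) rose, and NAA60 (-1.95), SUDS3 (-1.28), EPC1 (-1.74) and NMNAT3 (-3.42) fell. By DESeq2, 3 of 6 other deacetylases rose and 0 fell, and 6 of 14 other acetyltransferases rose and 1 fell, where 1962 of 18942 features rose and 771 fell. By edgeR the counts were 1 and 0 of the 6, and 1 and 1 of the 14. Without SCNT8c replicate 3 the limma counts were larger, with 5 rises and 1 fall among the 14 other acetyltransferases and 2 rises and 7 falls among 28 deacetylase complex subunits, where 2363 of 18990 features rose and 3770 fell. With another library left out the limma counts went down to 0 in each list.

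Genes near 0 in SCNT4c, such as HMG20B, MRGBP and SLC25A1, reached the minimum mean of the comparison with PFF only through PFF and could only fall, and genes at 0 in PFF, such as BRDT, could only rise, so the balance of falls and rises in a list is not read as a result. The falls and rises called by limma were 6 and 1 of 8 other deacetylases, 8 and 3 of 14 other acetyltransferases, 18 and 8 of 32 deacetylase complex subunits, 22 and 10 of 37 acetyltransferase complex subunits, 6 and 4 of 11 readers and 6 and 2 of 12 cofactor genes. By DESeq2 the readers had 4 of each. Among all features 39.7% rose and 38.5% fell, and of the features called 50.8% were higher, or 60.4% by edgeR and 60.6% by DESeq2. The largest falls by list were SIRT2 (-6.00), NAA40 (-5.11), HMG20B, DMAP1 (-8.06), BRD9 (-4.14) and SLC25A1, of which HMG20B (0.263 in SCNT4c, 755 in PFF), SLC25A1 (0.263 and 126) and DMAP1 (1.34 and 527) had almost no reads in SCNT4c. The largest rises were SIRT4 (1.48), ESCO1 (2.19), SAP30 (4.77), ING3 (6.02), BRDT and NMNAT3. BRDT, a testis and germ cell bromodomain protein, had 15138 ± 887 in SCNT4c and 0 in PFF, which is at least 12300-fold higher when 3 reads over the PFF group are taken as the limit. The median log2 fold changes of the 6 lists lay between -2.62 and -1.42, against 0.07 for all features in the same limma fit. These medians include genes that could only fall or only rise, so they are not read as a result either.

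The genes whose values were most like each enzyme over the 12 embryo libraries were ranked by Pearson r of log2(value + 1), a description in which group differences and shared libraries count alike. For SIRT1 they included CEP85L (r = 0.978) and TRIM71 (r = 0.972). For KAT2A they were GAA (0.978), ARHGAP9 and NAV2, for HDAC1 COPS6 (0.960), C4H8orf76 and ACAD8, and for HDAC3 VRK1 (0.960), SCAF4 and GSPT1. For KAT5 they were TMED2 (0.972), DNAJB11 and C6H18orf21, and for EP300 WDR3 (0.946), GNA11 and DPRX. HDAC8 (RTCB, 0.912) and CREBBP (GRSF1, 0.865) had the lowest first values.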

How the data were processed

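RNA-seq of 15 libraries in 5 groups of 3 was analysed, grouped by GEO's labels and, for SCNT4c, by column names matched to titles. The authors amplified cDNA without molecular identifiers, trimmed reads with Trimmomatic 0.39, aligned them with STAR 2.5.3a to Sscrofa11.1, discarded reads that did not map uniquely, ran StringTie 2.1.2 for transcript assembly and HTSeq for counting, and the deposited signal values are these reads divided by 1 size factor per library, as named in the submitters' notes and methods. No batch is named. The table had 43535 entries, 241 of them repeated, which left 43294 features, with 28224 known genes. Every value came out as a whole number of reads within 0.01, so depth per library could be recovered. Without molecular identifiers these reads are not independent molecules. RNA came from embryos and fibroblasts by different kits, which cannot be told apart from the cell type.

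limma 3.58.1 (R 4.3.3, trend) was run on log2(value + 1) for features with a mean of at least 10, on the 12 embryo libraries or, against PFF, on 6, with Benjamini-Hochberg adjustment over all features. Fold changes are on this scale, which understates those of low genes. Changes were called at an adjusted p under 0.05 with a fold above 2. edgeR 4.0.16 and DESeq2 1.42.0 on the recovered reads, other pseudocounts, filters and scalings, and leaving out each library were alternatives. For the lists, the alternatives were added after the values were seen. Genes named from each list were the 3 with the largest called change in each direction, without overlap between groups and with the higher group averaging 100 or more. Scripts were tested on simulated data. The 10 genes and the lists were chosen with earlier results of these data known. RefSeq annotation of Sscrofa11.1 gave positions and sequences. Some genes that the naming rule selects are not reported here.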

Additional observations from a re-analysis of the deposited data

Results flagged for a closer look

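For 2 of the 10 genes the effects of the treatments, both measured against the same SCNT4c libraries, differed by the limma test between SCNT4c-TDG and SCNT4c-KG. For SIRT1 the difference was 1.71 on the log2 scale (adjusted p = 0.00271), and the 3 SCNT4c-TDG libraries were higher than the 3 SCNT4c-KG libraries. For CREBBP it was 2.17 (adjusted p = 0.0419), again with no overlap. Over the alternatives the adjusted p of CREBBP went up to 0.164.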

How the results depend on the processing

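For the 10 genes, 40 log2 fold changes were recomputed under alternatives, which gave 902 values. Of these, 804 kept their direction and side of the threshold, 55 fell below it, 14 passed it and 29 changed sign, each of the last for a gene that had not been called. The cause of these changes was not tested. The number of genes changed in SCNT4c-KG was 5, and 3 with a minimum mean of 50, which leaves HDAC3 and EP300 untested, or by edgeR; with 1 library left out it ranged from 1 to 5. The ranges that follow are also those with 1 library left out. In SCNT4c-TDG it was 6 and ranged from 4 to 6. At the 8-cell stage it was 1, and 0 with every feature above 0 or with the groups alone, with a range of 0 to 3. Between the treatments it was 2, and 1 with a pseudocount of 0.1, every feature above 0 or edgeR, and 4 with the groups alone; the range was 1 to 4. Against PFF it was 5, and 3 under quantile normalization, edgeR or DESeq2, with a range of 4 to 5. The EP300 to CREBBP difference ranged from -2.89 to -0.44.

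Signs changed as follows. In SCNT4c-KG, CREBBP was 0.069 under quantile normalization, 0.16 by edgeR and 0.21 by DESeq2, and ranged from -0.60 to 0.59 with 1 library left out, where HDAC8 ranged from -0.64 to 0.023. At the 8-cell stage, HDAC3 was -1.21 after adding assembled transcripts at the locus and ranged from -0.59 to 0.93, and CREBBP ranged from -0.46 to 0.66. Between the treatments, HDAC3 was 0.13 under quantile normalization, 0.25 with equal totals, 0.077 by edgeR and 0.044 by DESeq2, and ranged from -0.37 to 0.22. HDAC8 was 0.045 with equal totals and ranged from -0.64 to 0.022, and EP300 ranged from -0.14 to 1.04. Against PFF, SIRT1 was 0.51 under quantile normalization, 0.12 with equal totals, 0.25 by edgeR and 0.29 by DESeq2, KAT2A was 0.019 under quantile normalization, and HDAC8 ranged from -0.19 to 0.39.

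Over the groups with settled numbers, which leaves out SCNT4c, the correlation of the deviations of same-numbered libraries was -0.0611 to 0.195, highest for replicate 3 of SCNT4c-TDG and SCNT8c, and not over 0.1 for every pair, so the numbers were not taken as pairs. With a replicate block, 4 of the 8 genes and 4805 features differed between the treatments, against 4989 features with the same groups without it and 3070 in the fit of 12 libraries. HDAC3, EP300 and HDAC6 had 13, 4 and 2 reads over the 3 SCNT4c libraries, the deepest of the embryo groups, so folds against SCNT4c are imprecise for these genes. Features called ranged over the alternatives from 5356 to 8443 in SCNT4c-KG, 4496 to 8882 in SCNT4c-TDG and 0 to 6133 at the 8-cell stage.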
